A study of Mus musculus with 12 samples.

Results

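Cardiac RNA on a diet free of the branched-chain amino acids (BCAA) was compared with RNA on a control diet, as a difference averaged over sham-operated and pressure-overloaded hearts. The series compared a BCAA-free diet with a BCAA-control diet, which held all essential amino acids, BCAA included, at about the levels of standard chow. Male C57Bl/6J mice aged 12 weeks were put on their diet 4 days before surgery and stayed on it until the hearts were taken 1 week later. The operation was a sham procedure or a transverse aortic constriction (TAC), in which the aortic arch is narrowed so that the left ventricle pumps against a higher pressure. Poly(A) RNA of whole hearts was sequenced in 12 libraries, 3 for each of 4 groups, named here control sham, BCAA-free sham, control TAC and BCAA-free TAC. All 12 libraries of the series enter the comparison, 6 on each diet. Of the 18433 genes listed for the diet comparison in sham or in TAC hearts, 17571 were listed in both with a mean of at least 10 normalised reads and were tested. Whether the 3 libraries of a group came from different mice is not stated in the labels, and p-values then cover the spread between these libraries, part of which may be technical.

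Leucine, isoleucine and valine are the branched-chain amino acids. They cannot be made by mammals, serve as building blocks of protein, and are oxidised for energy in muscle and heart. Their breakdown starts with transamination by BCAT enzymes and passes through the mitochondrial branched-chain ketoacid dehydrogenase, which the kinase BCKDK switches off and the phosphatase PPM1K switches on. Leucine also activates mTORC1, a kinase that promotes protein synthesis and restrains autophagy, whereas lack of an amino acid activates the kinase GCN2 and the transcription factor ATF4. The heart responds to pressure overload with growth of its muscle cells, proliferation of other cells and deposition of matrix.

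Each gene's diet difference is the mean log2(normalised reads + 1) on the BCAA-free diet minus that on the control diet, computed in sham hearts, in TAC hearts and as the average of both. A gene was taken as changed by diet when the averaged difference had an adjusted p below 0.05. Of the 17571 genes tested, 4516 changed (25.7%), 2004 of them higher (11.4%) and 2512 lower (14.3%) on the BCAA-free diet. The 2 diet differences had the same sign for 4414 of these 4516 genes and opposite signs for 102. A test of the average favours genes whose differences share the sign. A difference was called similar in both kinds of heart when the signs were the same and the smaller was at least 0.5 of the larger on the log2 scale. By this rule 1987 of the changed genes were similar (11.3% of genes tested), 858 higher and 1129 lower. Signs were the same for 71.0% of all genes tested, 30.2% also met the rule of size, and among the genes that did not pass the test 25.4% did. A further 2427 changed genes shared the sign but not the size, and 2335 of these had the larger difference in TAC hearts. The median size of the diet difference among the 4516 genes was 0.26 in sham and 0.56 in TAC hearts, and among the 1987 similar genes 0.38 and 0.48. At least 2-fold averaged differences were seen in 188 similar genes, 35 higher and 153 lower. For 1303 of the 1987 (65.6%), the diets did not overlap in sham libraries nor in TAC libraries, which was so for 13.5% of all genes tested. The test itself favours genes whose diets do not overlap. Counts of list members below stand beside 11.4% higher, 14.3% lower and 13.5% not overlapping among all genes.

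**Figure D1:**
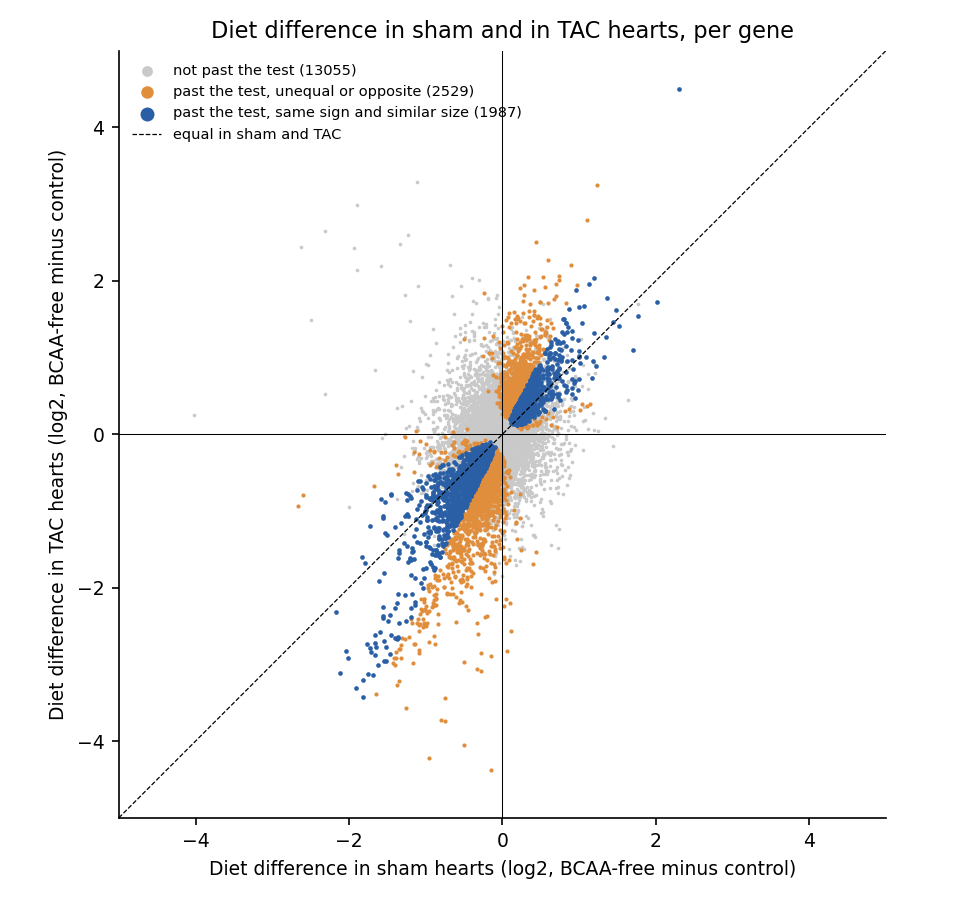
Diet difference in sham hearts (x axis) against that in TAC hearts (y axis) for the 17571 genes tested, both in log2 units of BCAA-free minus control. Points are genes, coloured by whether the averaged difference passed the test and whether it was similar in both kinds of heart. The 1987 similar genes lie on both sides of the dashed line of equal differences, 1533 of them with the larger difference in TAC hearts. Most of the 2529 other changed genes lie nearer to the TAC axis.

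Sham and TAC libraries share no samples, so each diet comparison could be read against the other. With the sham libraries fitted alone, 637 genes passed the test (3.63%), 228 higher and 409 lower. Of these, 619 (97.2%) had the same sign in TAC hearts, and 515 (80.8%) had the same sign with an unadjusted p below 0.05, against 27.3% of all genes tested. Their median difference was 0.46 in sham hearts and 0.63, in the same direction, in TAC hearts. With the TAC libraries fitted alone, 2975 genes passed (16.9%), 1127 higher and 1848 lower. In sham hearts 2703 of them (90.9%) kept the sign, and 1469 (49.4%) did so with an unadjusted p below 0.05, against 18.4% of all genes. Their median difference was 0.73 in TAC hearts and 0.25 in sham hearts. Both separate fits called 430 genes, 428 with the same sign. The authors' deposited tables list 1529 genes in sham and 3779 in TAC hearts at an adjusted p below 0.05, 1022 in both, and 1015 of these with the same sign.

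The test of whether the diet difference itself differed between sham and TAC hearts, an interaction term in the same model, passed for 112 genes (0.637%) and for 2571 at an unadjusted p below 0.05. None of the 1987 similar genes passed it with limma, while 82 had an unadjusted p below 0.05 and 2 passed with edgeR and 14 with DESeq2. The similar genes were chosen by the sizes of the same differences in the same fit, so few interaction calls follow from that rule. Without control TAC 3, 64 of the 1987 passed the interaction test. A gene that did not pass is not shown to have equal differences, because 3 libraries a group leave wide errors on the interaction.

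Depth ran from 74205367 to 110446728 reads a library. On the first principal component of the normalised reads, with 44.6% of the variance, control TAC libraries scored 47.3 to 60.7 and all others -4.49 or lower. The BCAA-free TAC libraries, scaled together with control TAC, scored -21.8 to -5.12. Sham libraries were scaled separately, and the part of scaling in their distance from TAC libraries was not tested. Control TAC 3 lay farthest from its group, with an SD of its deviations over genes of 0.333 against 0.212 to 0.270 for the others, and belongs to the controls of the TAC comparison. Without it 6504 genes passed, 3290 higher and 3214 lower, and 1613 of the 1987 similar genes still passed and were similar. The structured RNAs Rn7sk, Rmrp and Rpph1 summed to 19.3 to 115.5 CPM (reads scaled to equal library totals) in control sham 2, control TAC 3 and BCAA-free TAC 1 and 3, and to 2.06 to 7.79 CPM in the other 8 libraries. Leaving these 4 libraries out, an alternative chosen after seeing the data, keeps BCAA-free TAC 2 alone in its group. Counts and p-values of that fit are therefore not given, and calls of named genes lost in it are marked as coming from a fit without that replicate. Reads of mitochondrially coded genes took 17.9% to 19.9% of control TAC libraries and 21.9% to 27.1% of all others. Markers of heart muscle cells were abundant in every library, with 11 markers summing to 66811 to 84776 CPM. In whole-heart RNA, fewer cells of a type and less RNA per cell cannot be told apart.

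Genes of BCAA breakdown were higher on the diet that lacked their substrates. Of 28 such genes, 23 rose, 1 fell and 4 did not pass the test (Bckdk, Hibch and Slc25a44 among them), with a median averaged difference of 0.34 against 0.01 over all genes tested. The estimate was higher in both sham and TAC hearts for 27 of the 28, and in 21 genes the diets did not overlap in either kind of heart. Over all genes tested, 11.4% rose, 14.3% fell and 13.5% did not overlap. The medians were 0.18 in sham and 0.51 in TAC hearts, and 4 of the 23 rises were similar in size.

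Ppm1k, the phosphatase that activates the ketoacid dehydrogenase, rose most among them. Its normalised reads were 6565, 7847 and 6957 in control sham and 11137, 10803 and 10343 in BCAA-free sham hearts. In control TAC hearts they were 4636, 3843 and 4949, and in BCAA-free TAC hearts 7519, 9074 and 8012. Every BCAA-free library was thus above every control library of its surgery, and the averaged difference was 0.74 ± 0.07 (SE, adjusted p = 2.52e-05), with 0.60 in sham and 0.88 in TAC. Ppm1k (ENSMUSG00000037826) lies at chr6:57506502-57535468 of GRCm38. Bcat2, the mitochondrial aminotransferase, rose by a similar amount in both kinds of heart, 0.21 and 0.33, with an averaged difference of 0.27 ± 0.06 (adjusted p = 0.00634). Among subunits of the dehydrogenase, Dbt rose by 0.48 ± 0.07 (adjusted p = 0.000199) and Bckdhb by 0.43 ± 0.08 (adjusted p = 0.00181), with 0.29 and 0.18 in sham and 0.68 and 0.67 in TAC hearts. Bckdha rose by 0.51 ± 0.05 (adjusted p = 2.92e-05), and its difference of 0.24 in sham against 0.77 in TAC hearts passed the interaction test (adjusted p = 0.039). Bckdk, the inhibiting kinase, differed by 0.19 ± 0.07 and did not pass (adjusted p = 0.0522), although it did with DESeq2 (adjusted p = 0.0391), without control TAC 3 (adjusted p = 0.00156) and without BCAA-free TAC 1 (adjusted p = 0.0491).

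Enzymes further down the pathway rose as well. Ivd, which oxidises the leucine product isovaleryl-CoA, rose by 0.55 ± 0.06 (0.31 in sham, 0.79 in TAC). Aldh6a1, of valine breakdown, rose by 0.57 ± 0.06 (0.38 and 0.76). Acadsb, of isoleucine breakdown, and Abat, which acts on a product of valine breakdown, were the other similar members, with averaged differences of 0.45 and 0.61. The member that fell was Bcat1, the cytosolic aminotransferase, with -0.39 in sham and -1.40 in TAC hearts. Slc25a44, the mitochondrial BCAA carrier, chosen after its values were seen, had 0.07 ± 0.08 (adjusted p = 0.549).

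**Figure D2:**
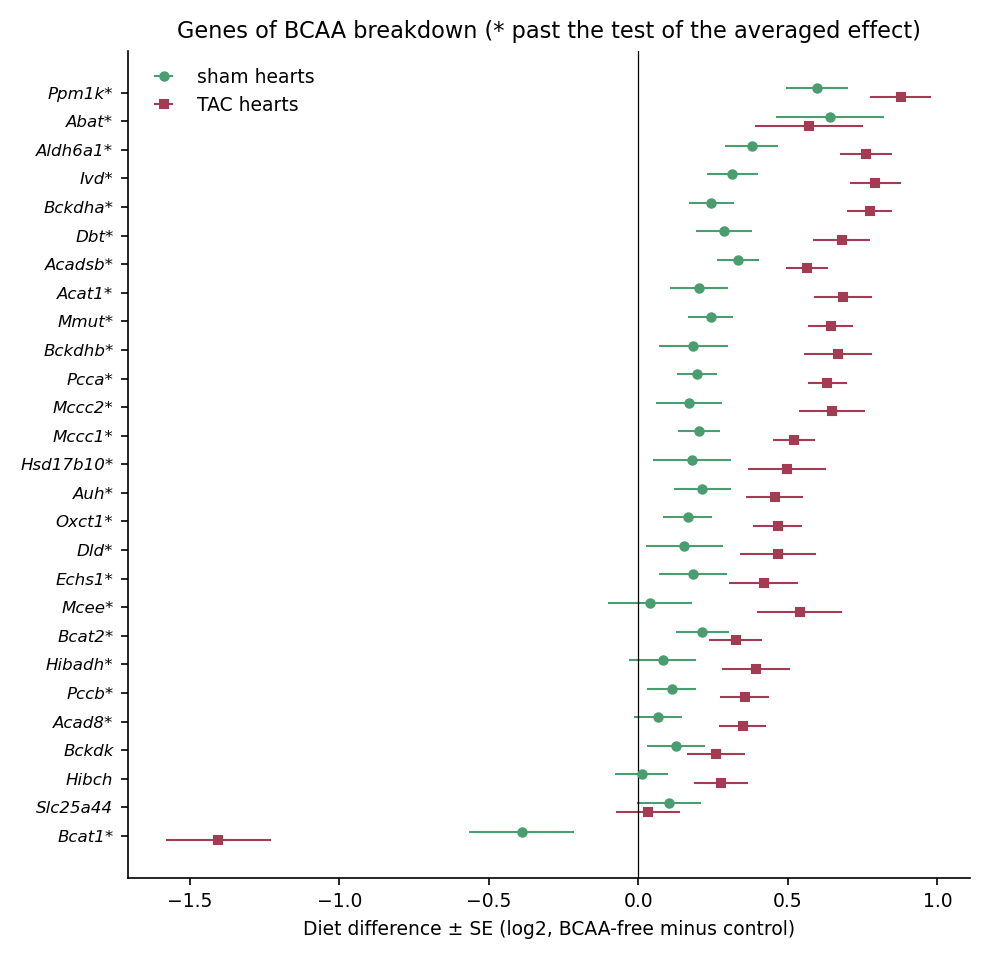
Diet difference in sham (circles) and TAC hearts (squares) for 27 of the 28 genes of BCAA breakdown, with bars for the SE in log2 units. The estimates of every gene drawn lie to the right of 0 in both kinds of heart, except for Bcat1, which lies to the left, and the squares lie to the right of the circles for most genes.

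The amino acid response did not move as a block. Of 31 tested genes listed for ATF4, 3 rose, 9 fell and 19 did not pass, with a median of -0.14 (-0.16 in sham, -0.17 in TAC). Over all genes tested, 11.4% rose and 14.3% fell. Atf4 itself had a difference of -0.14 ± 0.07 (adjusted p = 0.154), and its targets Trib3 (-0.17 ± 0.11), Ddit3 (-0.09 ± 0.09) and Sesn2 (-0.16 ± 0.09) did not pass either. Enzymes that make amino acids were among those that fell. Asns, which makes asparagine, had 316, 418 and 389 normalised reads in control sham and 248, 249 and 178 in BCAA-free sham hearts. In control TAC hearts it had 469, 433 and 574, and in BCAA-free TAC hearts 270.0, 262 and 277. The diets were separate in both, and Asns fell by nearly the same amount, -0.74 in sham and -0.85 in TAC (average -0.80 ± 0.11, adjusted p = 0.000243).

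The serine pathway enzymes Phgdh (-0.87 ± 0.14, adjusted p = 0.000637) and Psat1 (-0.61 ± 0.11, adjusted p = 0.001) fell in both kinds of heart, and so did Aldh18a1 of proline synthesis (-0.62 ± 0.08, adjusted p = 0.000112). Slc7a5, the leucine transporter of the cell membrane, fell by -0.66 ± 0.11 (-0.53 in sham, -0.78 in TAC), and the neutral amino acid carrier Slc1a4 by -0.50 ± 0.10. Those 2 were the members that fell among 22 amino acid transporters, of which 3 fell with DESeq2 and 4 without control TAC 3, control sham 1 or BCAA-free sham 2. Slc38a9, a lysosomal arginine sensor, rose by 0.16, a call kept in 3 of the 12 fits that each left out 1 library. Gdf15, a stress hormone, fell as well, with -0.55 in sham and -2.16 in TAC hearts. The members that rose were Vldlr, a lipoprotein receptor (0.53 ± 0.06), Chac1, which degrades glutathione (0.56 ± 0.14, chosen after its values were seen), and Cth. Without the 4 libraries high in structured RNA, a fit with no replicate for BCAA-free TAC, Chac1 did not pass. Aminoacyl-tRNA synthetases, the enzymes that charge tRNA, had a median of 0.04 over 20 genes, and without control TAC 3 the count of rises was 8 instead of 2. Kars (0.25 ± 0.05) and Lars, which charges leucine (0.24 ± 0.07), rose, and Vars, which charges valine, fell (-0.34 ± 0.06), each by a similar amount in both kinds of heart.

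Cth and Gnmt, 2 enzymes of sulfur amino acid and methyl metabolism, were among the 12 largest similar rises. Cth, which makes cysteine from cystathionine, had 82.0, 118 and 87.9 normalised reads in control sham and 180.3, 164 and 234 in BCAA-free sham hearts. In TAC hearts the values were 57.4, 44.9 and 65.7 on the control diet and 115, 249.8 and 190.3 on the BCAA-free diet. Its averaged difference was 1.33 ± 0.19 (adjusted p = 0.000232), 2.51-fold. Gnmt, which methylates glycine, rose by 1.37 ± 0.17 (1.06 in sham, 1.68 in TAC, adjusted p = 7.99e-05). Both separated the diets completely in each kind of heart, which was a condition for the 12 largest rises.

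Genes of amino acid sensing were mostly unmoved. Of 36 tested genes of mTORC1 and its regulators, 4 rose (Rragd, Sesn1, Tsc1 and Rps6kb1), with a median of 0.09, and without control TAC 3 the count was 12. The call of Rps6kb1, the S6 kinase downstream of mTORC1, was kept in 2 of the 12 fits that left out 1 library. Rragd, a Rag GTPase that brings mTORC1 to the lysosome, rose by 0.40 ± 0.06 (0.34 in sham, 0.46 in TAC). Sesn1, a sestrin and mTORC1 inhibitor, rose by 0.41 ± 0.08 (0.33 and 0.50). Of 76 cytosolic ribosomal protein genes 4 rose (Rps29, Rps27, Rps21 and Rps25), with a median of 0.09. The count was 29 without control TAC 3, 1 without control TAC 1, control sham 3, BCAA-free sham 3 or BCAA-free TAC 2, and 2 without control TAC 2 or BCAA-free sham 1. Summed CPM of the 76 genes was 14884 to 17082 in control sham and 16389 to 17448 in BCAA-free sham hearts. In TAC hearts it was 18183 to 21840 on the control diet and 16733 to 18579 on the BCAA-free diet, and the diets overlap in both.

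Part of the genes of autophagy, of ubiquitin ligases of muscle wasting and of FoxO transcription factors rose. Of 29 such genes 14 did, against 11.4% of all genes tested. Of these 14, 10 rose by similar amounts in both kinds of heart. The list's medians were 0.20 in sham and 0.14 in TAC hearts. Summed over the 29 genes, libraries held 2826 to 2962 CPM in control sham and 3264 to 3416 in BCAA-free sham hearts. In TAC hearts the sum was lower on the BCAA-free diet, 2988 to 3142 CPM against 3199 to 3243 on the control diet. CPM and normalised reads are scaled differently, and the part of scaling in the TAC rises was not tested. When 1 library at a time was left out, between 9 and 16 rose, and the count was 9 without control sham 2, without control sham 3, without control TAC 1 or without BCAA-free sham 3. Klf15, a transcription factor that promotes amino acid breakdown in heart and muscle, had 5756, 4801 and 3283 normalised reads in control sham and 7484, 7888 and 7129 in BCAA-free sham hearts. In control TAC hearts it had 3157, 2707 and 3368, and in BCAA-free TAC hearts 6311, 5419 and 5041. Its difference was 0.80 ± 0.11 (adjusted p = 0.00027), 0.74 in sham and 0.86 in TAC, with no overlap between diets.

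Klhl38, a muscle gene of the kelch family, rose by 0.89 ± 0.15 (0.78 in sham, 1.00 in TAC). Foxo3 itself rose by 0.51, and Fbxo31, an F-box protein of ubiquitin ligases, by 0.44 ± 0.06. Atg14, a subunit of the lipid kinase that starts autophagosomes, rose by 0.36 ± 0.06 with 0.35 in sham and 0.38 in TAC. Fbxo32 (atrogin-1) and Trim63 (MuRF1), ligases known from muscle atrophy, rose by 0.27 and 0.34. Bcl2l11, the FoxO target Bim that promotes cell death, chosen after its values were seen, rose by 0.77 ± 0.13 (0.72 and 0.82).

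Insulin and IGF signalling genes split in direction. Of 22 genes 7 rose and 4 fell, with a median of 0.01. Those that rose included the insulin receptor Insr (0.30), Irs1, a docking protein of both receptors (0.55), Pik3r1 (0.35) and Pik3ip1, a PI3-kinase inhibitor (0.41). The 4 that fell were Igf1, Igfbp7, Igfbp4 and Igf1r. Igf1, the growth factor itself, fell by -0.86 ± 0.12 (-0.38 in sham, -1.33 in TAC). Igfbp7, a secreted binding protein, fell by -0.96 ± 0.09 (adjusted p = 2.15e-05), from 12809.7, 9050.4 and 10501 to 5999, 6844 and 6691 normalised reads in sham hearts. In TAC hearts it went from 26754, 29478 and 25599 on the control diet to 13187, 10381 and 12076 on the BCAA-free diet. Igfbp3, the main carrier of IGF in blood, rose by 0.31 ± 0.05 in both (0.32 and 0.30).

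**Figure D3:**
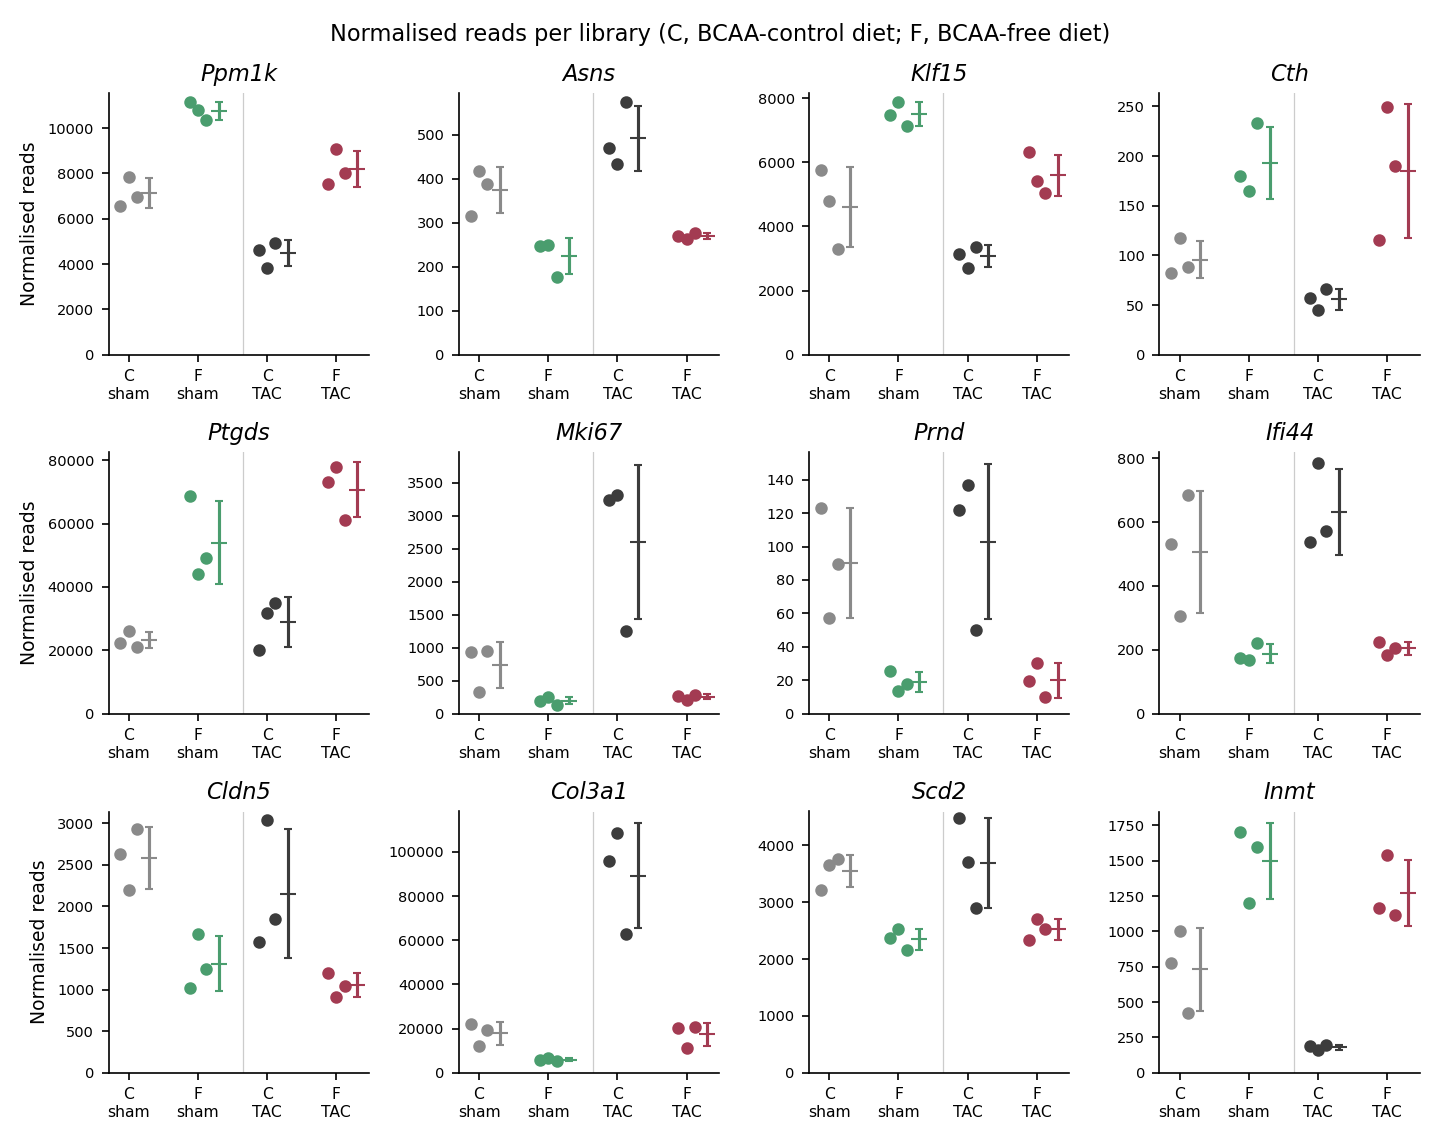
Normalised reads (y axis, from 0) of 12 genes in each of the 12 libraries, with C for the BCAA-control and F for the BCAA-free diet. Points are libraries, and the bar beside them is the mean ± SD of 3. Levels can be compared between diets within a surgery, since the 2 surgeries were scaled separately, and in each gene the diets do not overlap within sham nor within TAC.

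The largest similar falls were in genes of cell division. Of 30 cell cycle genes, 28 fell and 2 did not pass, with a median of -1.16 (-0.84 in sham, -1.63 in TAC), and 26 had lower estimates in both kinds of heart. In 23 genes the diets did not overlap in either, and 11 of the 28 falls were similar in size. Over all genes tested, 14.3% fell and 13.5% did not overlap. With 1 library left out at a time, 26 to 29 fell. The 12 largest similar falls among genes whose diets did not overlap were Pbk, Depdc1a, Ckap2, Mki67, Ttk, Nek2, Melk, Cep55, Top2a, Ckap2l, Prnd and Tpx2, and with the exception of Prnd these are known genes of mitosis or chromosome handling.

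The promoters of Ccnb2 and Top2a are shown because cyclin B2 and topoisomerase II alpha are standard genes of mitosis that fell. Both fell in sham and in TAC hearts, with the larger difference in TAC. Genes of this phase are known to carry a cell cycle homology region (CHR, TTTGAA) and CCAAT boxes in their promoters. The sequences are RefSeq's for GRCm38.p6, 250 bases before to 50 after the gene's start, read in the gene's direction, with each CHR and CCAAT box on either strand in capitals.
Ccnb2: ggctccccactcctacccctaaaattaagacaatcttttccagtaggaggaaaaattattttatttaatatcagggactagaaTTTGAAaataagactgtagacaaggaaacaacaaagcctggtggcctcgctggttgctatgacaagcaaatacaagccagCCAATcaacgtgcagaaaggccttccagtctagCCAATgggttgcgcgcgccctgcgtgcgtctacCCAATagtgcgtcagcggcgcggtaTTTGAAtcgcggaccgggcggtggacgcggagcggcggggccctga
Top2a: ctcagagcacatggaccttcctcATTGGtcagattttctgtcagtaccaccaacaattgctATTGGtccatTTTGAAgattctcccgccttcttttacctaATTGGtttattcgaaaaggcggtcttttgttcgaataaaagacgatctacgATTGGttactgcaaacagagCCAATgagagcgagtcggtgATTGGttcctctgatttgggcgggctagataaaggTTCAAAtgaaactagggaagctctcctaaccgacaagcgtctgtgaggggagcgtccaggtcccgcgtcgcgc
The window of Ccnb2 is chr9:70421505-70421804 (minus strand), and that of Top2a is chr11:99024140-99024439 (minus strand). The Ccnb2 window held 2 CHR and 3 CCAAT boxes, and that of Top2a 2 and 6. A promoter sequence was at hand for 24 of the 30 genes. The letters TTTGAA were in 9 of the 24 (37.5%) on either strand, against 20.2% of all 27025 promoters and 14.5% of the 11999 of genes tested. CCAAT was in 19 (79.2%), against 41.1% and 42.2%. Other lists varied, with CCAAT in 16 of 16 sterol promoters and 2 of 10 xenobiotic promoters. TTTGAA was in 5 of 16 promoters of amino acid transporters and 0 of 12 of aminoacyl-tRNA synthetases. These 2 motifs were chosen after the values were seen, and a match is a description of the letters only.

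Mki67, the proliferation marker Ki-67, had 934, 334 and 953 normalised reads in control sham and 197, 247 and 139.7 in BCAA-free sham hearts. Its values after TAC were 3240.2, 3315 and 1247 on the control diet and 271, 213 and 292 on the BCAA-free diet. Its averaged difference was -2.51 ± 0.33 (adjusted p = 0.0004). Top2a went from 719.6, 489 and 923 to 242, 267 and 138 in sham hearts. After TAC it went from 2353, 2233 and 1431 to 320.0, 223 and 318. The averaged difference was -2.25 ± 0.20 (adjusted p = 2.44e-05), -1.72 in sham and -2.79 in TAC, so the libraries of the 2 diets were apart in both. Ccnb2, chosen after its values were seen, fell by -2.09 ± 0.19 (-1.59 and -2.58).

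Genes of S phase fell too, with unequal differences. The helicase subunits Mcm5 (-1.09 ± 0.10) and Mcm6 (-0.80 ± 0.07) and the transcription factor E2f1 (-1.74 ± 0.14) fell more in TAC than in sham hearts, each with an adjusted interaction p between 0.025 and 0.041. Mcm6, for example, had -0.42 in sham and -1.17 in TAC. Ccnd1, the cyclin of G1 entry, fell by -0.97 and was similar, whereas its relative Ccnd2 had -0.03 and did not pass.

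Interferon-stimulated genes fell by similar amounts in sham and TAC hearts. Of 26 genes, 21 fell and 5 did not pass, and 18 of the 21 were similar in size. The median was -0.68, with -0.55 in sham and -0.82 in TAC hearts, and 25 genes had lower estimates in both. In 15 genes the diets did not overlap in either kind of heart. The shares of all genes tested were 14.3% for falls and 13.5% for no overlap. These genes are switched on by interferon through transcription factors such as STAT2 and IRF9, which bind the interferon-stimulated response element (ISRE), and many of their products block viruses.

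The promoters of Isg15, Ifit1 and Ifit3 are shown because these members fell in both kinds of heart and hold the element near their start. They are RefSeq's for GRCm38.p6 with the same window, and capitals mark the core of the element on either strand, which reads GAAA, then 2 bases of any kind, then GAAA.
Isg15: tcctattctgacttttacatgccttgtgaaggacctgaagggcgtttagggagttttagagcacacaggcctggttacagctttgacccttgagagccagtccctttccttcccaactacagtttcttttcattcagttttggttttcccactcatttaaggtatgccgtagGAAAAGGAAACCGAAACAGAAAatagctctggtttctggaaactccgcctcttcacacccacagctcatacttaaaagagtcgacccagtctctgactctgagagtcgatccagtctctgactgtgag
Ifit1: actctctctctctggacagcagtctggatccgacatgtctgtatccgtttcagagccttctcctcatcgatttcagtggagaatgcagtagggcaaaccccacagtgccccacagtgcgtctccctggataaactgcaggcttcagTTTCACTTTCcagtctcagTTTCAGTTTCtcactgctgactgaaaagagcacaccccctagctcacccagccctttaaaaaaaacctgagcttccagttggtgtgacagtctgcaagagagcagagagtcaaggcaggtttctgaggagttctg
Ifit3: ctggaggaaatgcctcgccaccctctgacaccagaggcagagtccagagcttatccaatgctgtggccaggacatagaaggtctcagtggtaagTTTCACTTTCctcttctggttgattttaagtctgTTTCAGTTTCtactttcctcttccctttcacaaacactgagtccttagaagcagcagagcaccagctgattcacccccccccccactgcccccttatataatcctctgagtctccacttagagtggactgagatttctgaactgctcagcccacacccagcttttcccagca
The windows are chr4:156200769-156201068 (minus strand) for Isg15, chr19:34640639-34640938 (plus strand) for Ifit1 and chr19:34583279-34583578 (plus strand) for Ifit3. Of 21 members with a promoter sequence, 11 (52.4%) held this core, against 3.99% of all 27025 promoters and 3.80% of those of genes tested. This motif was also chosen after the values were seen.

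Isg15, a ubiquitin-like protein, had 348, 220.0 and 334 normalised reads in control sham and 152, 150.1 and 159 in BCAA-free sham hearts. TAC hearts held 525, 708 and 514 on the control diet and 201, 182 and 153 on the BCAA-free diet. It fell by -1.31 ± 0.13 (adjusted p = 2.52e-05). Ifi44 fell by nearly the same amount in both, from 531, 305 and 684 to 174, 169 and 222 in sham hearts. In TAC hearts its values went from 538, 786 and 573 to 226, 183 and 205. The averaged difference was -1.48 ± 0.17 (adjusted p = 5.9e-05), with -1.36 in sham and -1.61 in TAC and no overlap between diets. Ifit1, an RNA-binding antiviral protein, fell by -1.01 ± 0.11 and Bst2 (tetherin), which holds back budding viruses, by -0.96 ± 0.10.

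Regulators of the response fell in part. Irf7, the factor that amplifies interferon production, chosen after its values were seen, had -0.99 in sham and -1.12 in TAC (average -1.05 ± 0.17). Irf9 fell by -0.51, whereas Stat2 (-0.35) and Irf1 (-0.05) did not pass. Genes of antigen presentation on the list, B2m (-0.83), Tap1 (-0.64) and Psmb8 (-0.40), fell as well. One interferon-inducible relative outside the list went the other way. Gbp10, a guanylate-binding protein, was among the 12 largest similar rises, with 1.17 ± 0.24 (1.32 in sham, 1.01 in TAC), while Gbp3 fell by -0.79.

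**Figure D4:**
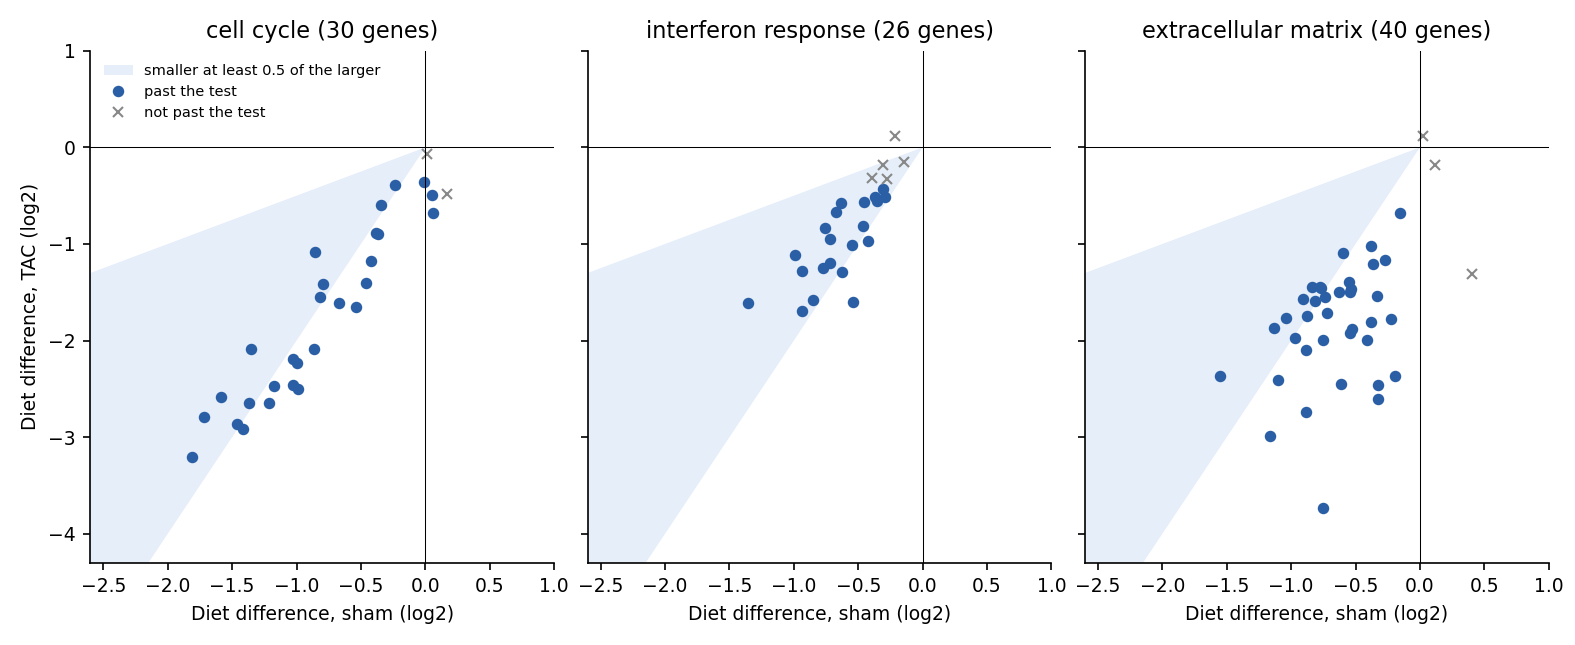
Diet difference in sham (x axis) against TAC hearts (y axis), in log2 units, for the members of 3 lists. Circles are genes whose averaged difference passed the test, and crosses are those that did not. The shaded wedge holds pairs whose smaller difference is at least 0.5 of the larger, which takes in 18 of the 21 changed interferon genes, 11 of the 28 cell cycle genes and 10 of the 37 matrix genes.

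Other genes of immune cells fell in part. Of 24 inflammatory genes 10 fell, with a median of -0.67 (-0.31 in sham, -0.61 in TAC). The chemokine Cxcl10, which draws T cells, fell by -1.78 ± 0.22 (-1.37 and -2.20), and Ccl8 by -1.42 ± 0.20 (-1.35 and -1.50). Cxcl16, a scavenger receptor and chemokine, fell by -0.89 ± 0.09 (-0.71 and -1.07). Lgals3 (galectin-3), a lectin of activated macrophages, had -0.25 in sham and -1.56 in TAC hearts, with an adjusted interaction p of 0.024.

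Complement genes and macrophage markers fell in part. Of 18 complement genes 9 fell and 3 rose (C3 and Cd59a among them), with 2 rises in edgeR and 1 without any 1 of control sham 2 and 3, control TAC 1 and 2, BCAA-free sham 1 and 3 or BCAA-free TAC 1 and 3. The C1q chains of macrophages C1qa (-0.57 ± 0.09) and C1qb (-0.66 ± 0.09) were similar in both kinds of heart. C1qb had 3678, 2639 and 3053 normalised reads in control sham and 2189, 2338 and 2256 in BCAA-free sham hearts. With TAC the reads were 6145, 5953 and 5542 on the control diet and 3912, 2737 and 3165 on the BCAA-free diet. Of 11 macrophage markers 8 fell, among them Cd68 (-0.71 ± 0.10) and Fcgr1 (-0.94 ± 0.11), and Cd163 and Lyve1 rose. The resident macrophage marker Cd163, a scavenger receptor chosen after its values were seen, rose by 0.34 ± 0.09 (0.38 in sham, 0.31 in TAC). The call of Lyve1 was kept in 8 of the 12 fits that left out 1 library. Summed over the 11 markers, libraries held 285 to 367 CPM in control sham and 280.5 to 325 in BCAA-free sham hearts, which overlap. In TAC hearts they held 578 to 649.6 CPM on the control diet and 318 to 401 on the BCAA-free diet. The part of macrophage number in the falls of interferon and inflammatory genes was not tested.

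Matrix genes had the lowest median of the 29 pathway lists, and most of their falls were larger in TAC hearts. Of 40 genes 37 fell, with a median of -1.20, and the medians in sham and TAC hearts were -0.60 and -1.73. In 29 genes the diets did not overlap in either kind of heart, 10 falls were similar in size, and 6 genes passed the interaction test. Among all genes tested 14.3% fell, 13.5% did not overlap and 0.637% passed the interaction test. Col3a1, the fibrillar collagen III, chosen after its values were seen, had 21918, 11958 and 19483 normalised reads in control sham and 5565, 6771 and 5384 in BCAA-free sham hearts. In TAC hearts it had 96090.2, 108711 and 62891 on the control diet and 20146, 11426 and 20645 on the BCAA-free diet. It was similar by the rule, with -1.55 in sham and -2.37 in TAC (average -1.96 ± 0.20, adjusted p = 7.31e-05).

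Sparc, which binds collagen, fell by -1.40 ± 0.14 (-1.04 and -1.76), and Loxl2, a collagen cross-linking enzyme, by -1.31 ± 0.13 (-0.88 and -1.74). Col1a1 fell by -1.75 ± 0.22 (-1.10 and -2.41) and Postn (periostin) by -1.81 ± 0.20 (-0.88 and -2.74), neither similar. Cthrc1, a secreted protein of activated fibroblasts, had -0.75 in sham against -3.73 in TAC hearts, with an adjusted p of 0.015 in limma's interaction test. Among general fibroblast markers 6 of 11 fell and Scara5 rose (0.52), while Pdgfra (0.03), Dcn (-0.03) and Tcf21 (-0.15) did not pass. Summed over the 11, BCAA-free sham libraries held 1583 to 1693 CPM against 1718 to 1903 in control sham, and BCAA-free TAC libraries 1703 to 1792 against 2162 to 2613 in control TAC. The part of fibroblast number in the matrix result was not tested. Pi16, a marker of adventitial fibroblasts, fell evenly, -0.76 and -0.65.

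Some vascular genes differed by nearly equal amounts. Prnd, which codes for the prion-like protein doppel of endothelial cells, had 123, 57.2 and 89.6 normalised reads in control sham and 25.5, 13.4 and 17.8 in BCAA-free sham hearts. The TAC libraries had 122, 137 and 49.9 on the control diet and 19.8, 30.4 and 9.76 on the BCAA-free diet. It fell 4.73-fold, with -2.17 in sham and -2.31 in TAC (average -2.24 ± 0.32, adjusted p = 0.000239). Cldn5, the claudin of endothelial tight junctions, fell by -0.99 ± 0.16 (adjusted p = 0.000899), with -0.98 in TAC hearts and nearly the same in sham. Its reads went from 2628, 2194 and 2938 to 1014, 1668 and 1250.0 in sham hearts. In TAC hearts they went from 1575, 3036 and 1847 to 1199.8, 916 and 1039. No BCAA-free library reached its control libraries in either kind of heart.

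Endothelial markers as a list moved little, with a median of -0.14. Of 11, Cldn5, Cdh5 and Pecam1 fell and Flt1 rose, and the calls of Cdh5 and Pecam1 were each kept in 2 and that of Flt1 in 5 of the 12 fits that left out 1 library. Ptgds, a prostaglandin D synthase, showed the opposite, a large and even rise. It had 22398, 26008 and 21091 normalised reads in control sham and 68719.6, 44060.2 and 49084 in BCAA-free sham hearts. After TAC it had 20057, 31652 and 34978 on the control diet and 73131, 77969 and 61015 on the BCAA-free diet. The averaged difference was 1.26 ± 0.14 (adjusted p = 6.05e-05), 1.20 in sham and 1.32 in TAC. Of the mural cell genes, the pericyte proteoglycan Cspg4 (-0.53 ± 0.07) and smooth muscle actin Acta2 (-0.68 ± 0.14) fell by nearly equal amounts in both, whereas the potassium channel subunit Abcc9 rose by 0.45 ± 0.07. Acta2 did not pass without the 4 libraries high in structured RNA, a fit with no replicate for BCAA-free TAC.

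Genes of lipid synthesis changed in part, beside 14.3% of all genes tested that fell and 11.4% that rose. Of 24 sterol genes 7 fell, all by similar amounts (Sqle, Msmo1 and Stard4 among them), and Fdft1 rose, with a median of -0.08. With 1 library left out at a time the count of falls ran from 2 to 8, and it was 2 to 4 without any 1 of the BCAA-free libraries, the control sham libraries or control TAC 1. Sqle, squalene epoxidase, a controlled step of cholesterol synthesis, fell by -0.40 ± 0.11 in both. Sqle did not pass without the 4 libraries high in structured RNA, a fit with no replicate for BCAA-free TAC. Fdft1, squalene synthase, rose by 0.35 ± 0.08. The sterol response motif TCACNCCAC was in 1 of 16 sterol promoters with a sequence (6.25%), against 1.44% of all. It was also in 1 of 10 xenobiotic promoters (10%) and 2 of 23 of fatty acid uptake and oxidation (8.7%), so it did not mark the sterol list.

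In fatty acid synthesis and storage 6 of 25 genes fell and 3 rose (Dgat2, Pnpla2 and Thrsp), and 1 rose without BCAA-free TAC 3. Scd2, which makes monounsaturated fatty acids, had 3219, 3661 and 3761 normalised reads in control sham and 2378, 2519.9 and 2154 in BCAA-free sham hearts. Its values after TAC were 4474, 3699.8 and 2897 on the control diet and 2329.8, 2698 and 2533 on the BCAA-free diet. It fell evenly, by -0.59 and -0.53 (average -0.56 ± 0.09, adjusted p = 0.000613). The elongases Elovl5 (-0.36 ± 0.07) and Elovl6 (-0.61 ± 0.15) and the desaturase Fads2 (-0.49) fell too. Dgat2, which makes triglyceride, rose by 0.41 ± 0.09, 0.09 in sham and 0.74 in TAC.

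Genes of fatty acid use rose, mostly with larger differences in TAC hearts. Of 30 genes of uptake and oxidation 22 rose, and 15 to 26 did with 1 library left out at a time. The medians were 0.10 in sham and 0.45 in TAC, and 3 of the 22 were similar. Those included Lpl, lipoprotein lipase (0.30 and 0.47), and Slc27a1, a fatty acid transporter. Hadha, of mitochondrial beta oxidation, had 0.10 in sham and 0.58 in TAC (average 0.34 ± 0.06). Of 57 nuclear-coded genes of oxidative phosphorylation 30 rose, 2 of them similar. With 1 library left out at a time 21 to 57 rose, and without control TAC 3 all 57 passed. The medians were 0.12 and 0.43. Of 24 tricarboxylic acid cycle genes 16 rose, and the count was 24 without control TAC 3 and 10 without BCAA-free TAC 2. Idh2, mitochondrial isocitrate dehydrogenase, rose by 0.38 in sham and 0.80 in TAC (average 0.59 ± 0.07).

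Mitochondrially coded genes had a median of -0.07 in sham and 0.49 in TAC hearts, and 1 of 13 passed the interaction test. Of the 13, 5 passed on the average, all higher and none similar. The count was 9 without control TAC 3, and 3 without any 1 of the BCAA-free libraries, control sham 2 or control sham 3. It was 0 in an additive model of diet and surgery. The control TAC libraries held the lowest mitochondrial share of reads, and the part of that share in these differences was not tested. Heart muscle markers rose in 7 of 11 genes (6 to 10 with 1 library left out), with medians of 0.07 and 0.48. Tnnt2, cardiac troponin T, was the 1 similar member, with 0.27 and 0.48. Calcium handling and channel genes rose in 12 of 25 (8 to 14 with 1 library left out), with 0.11 and 0.39. Atp2a2, the SERCA2 calcium pump, rose by 0.49 ± 0.07 (0.28 and 0.69), and the potassium channel subunit Kcnv2 by 1.15 ± 0.13 (0.59 and 1.71).

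**Figure D5:**
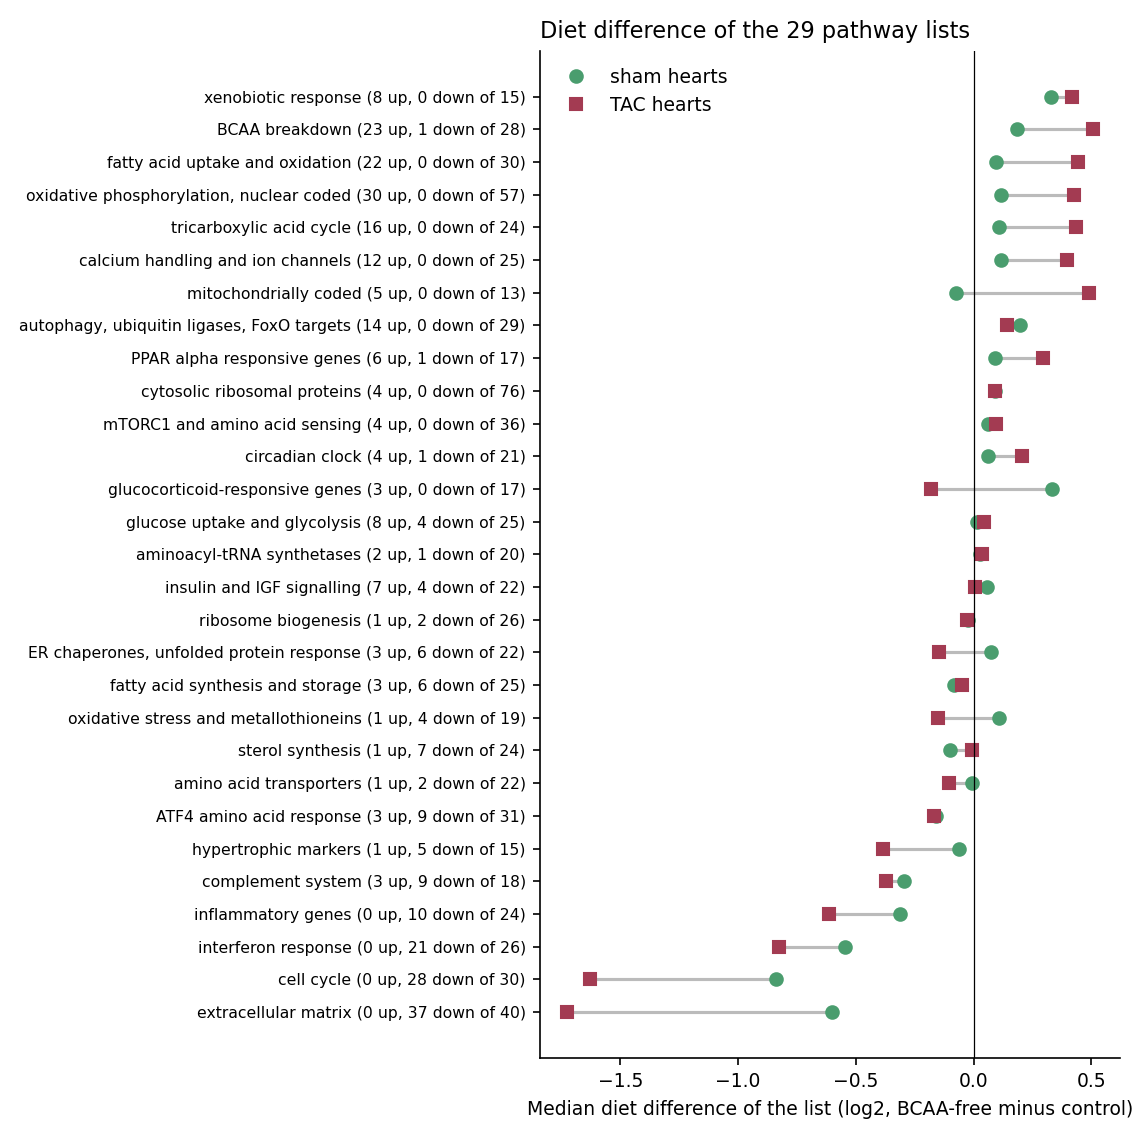
Median diet difference of the members of 29 pathway lists in sham (circles) and TAC hearts (squares), in log2 units of BCAA-free minus control, with the number of members that passed the test in each direction. The autophagy list and the ribosomal protein list lie at nearly the same value in both kinds of heart, and the matrix and cell cycle lists lie far to the left with squares beyond the circles. In summed CPM, neither the autophagy nor the ribosomal protein list was higher on the BCAA-free diet in TAC hearts.

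Genes of xenobiotic metabolism rose in 8 of 15 cases, 5 of them similar, with medians of 0.33 in sham and 0.42 in TAC hearts. Cyp1a1, a cytochrome P450 switched on by the aryl hydrocarbon receptor, had the largest similar rise of all named genes. It had 14.6, 41.0 and 29.9 normalised reads in control sham and 93.7, 192 and 131 in BCAA-free sham hearts. TAC hearts held 4.36, 2.99 and 4.16 on the control diet and 194, 115 and 54.9 on the BCAA-free diet. The averaged difference was 3.40 ± 0.32 (adjusted p = 2.37e-05), which rests on few reads on the control diet. The difference was clearly larger in TAC than in sham hearts, and Cyp1a1 met the rule of size only narrowly. The receptor Ahr (0.48) and its repressor Ahrr (0.38) rose as well, whereas the target genes Cyp1b1 (0.16) and Tiparp (-0.12) did not pass.

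Fmo2, a flavin monooxygenase, went from 2581, 3814 and 2265 to 5365, 5000.5 and 4637 normalised reads in sham hearts. In TAC hearts it went from 1977, 1963 and 1745 to 4732, 5591 and 5288. The rise was 1.14 ± 0.10 (adjusted p = 2.15e-05), and Fmo5 rose by 0.40 ± 0.07 with 0.40 in sham and 0.39 in TAC. Inmt, a methyltransferase of indoleamines, rose by 1.95 ± 0.18 but unequally, 1.11 and 2.79. Xdh, which makes uric acid, was another of the 12 largest similar rises (0.97 ± 0.13).

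The remaining large similar rises were Tcf23, a transcription factor (1.40 ± 0.21, with 1.70 in sham and 1.10 in TAC), and Zfp972, a zinc finger gene (1.31 ± 0.18, with 1.36 and 1.27). Spock2, a matrix proteoglycan, rose by 1.05 ± 0.13, Plag1, a zinc finger transcription factor, by 0.97 ± 0.15, and Clec12b, a lectin-type receptor, by 0.93 ± 0.16. In each of these 5 genes the diets did not overlap in sham nor in TAC libraries, which the rule for naming them required.

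Clock and stress hormone genes changed in a few members, beside 25.7% of all genes tested that passed in either direction. Of 21 clock genes 4 rose (Cry2, Nr1d2, Tef and Hlf) and Bhlhe40 fell, with a median of 0.07, and without control sham 2 the count of rises was 8. Cry2, a repressor of the clock, rose by 0.50 ± 0.11 (0.40 and 0.59), and Nr1d2 (Rev-erb beta) by 0.46 ± 0.11 (0.46 and 0.47). Per1 (-0.08 ± 0.18) and Dbp (0.60 ± 0.31) did not pass, although Dbp did without control sham 2 (adjusted p = 0.0104). Bhlhe40, a repressor of the clock, did not pass without the 4 libraries high in structured RNA, a fit with no replicate for BCAA-free TAC. The D-box TTATGNAA was in 2 of 18 clock promoters (11.1%) against 3.99% of all, and in 2 of 22 of the autophagy list (9.09%). Of 17 glucocorticoid-responsive genes 3 rose (Klf9, Klf15 and Hif3a), 5 did without control TAC 3 or without control sham 2, and the list's medians went in opposite directions, 0.34 in sham and -0.18 in TAC. Klf9, a direct target of the hormone's receptor, rose by 0.39 ± 0.05 (0.34 and 0.44, adjusted p = 8.99e-05). Fkbp5, another direct target, had 0.05 and did not pass.

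Markers of hypertrophy did not share an averaged change. Of 15 genes 5 fell (Acta1, Ankrd23, Rcan1, Fhl1 and Uchl1) and Myh6 rose. Nppa, the natriuretic peptide ANP, had -0.24 in sham and -1.20 in TAC (average -0.72 ± 0.24, adjusted p = 0.0523), and passed with edgeR (adjusted p = 0.0361), DESeq2 (adjusted p = 0.0153), without control sham 3 (adjusted p = 0.00582), without BCAA-free sham 1 (adjusted p = 0.0481) and without BCAA-free TAC 1 (adjusted p = 0.0371). Nppb, the peptide BNP, had -0.17 ± 0.16 and the fetal myosin Myh7 -0.19 ± 0.28, and neither passed. Acta1, the skeletal actin of the fetal program, and Ankrd23 fell by similar amounts in both kinds of heart. Acta1 had 20397, 24112 and 22755 normalised reads in control sham and 8846, 8057 and 6239.7 in BCAA-free sham hearts, which do not overlap. With TAC the reads were 65027, 192657 and 166174 on the control diet and 85373, 40529.8 and 66277 on the BCAA-free diet, which overlap. The averaged difference was -1.31 ± 0.27 (adjusted p = 0.00579). Acta1 did not pass without the 4 libraries high in structured RNA, a fit with no replicate for BCAA-free TAC. Fhl1 did not pass in the additive model (adjusted p = 0.0535).

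At the other end were changed genes whose 2 differences were unlike. Sprr1a, a cornified envelope gene, had 16.6, 25.9 and 14.5 normalised reads in control sham and 11.2, 12.5 and 5.08 in BCAA-free sham hearts. In TAC hearts it had 1039, 783 and 777 on the control diet and 55.9, 22.5 and 73.2 on the BCAA-free diet. Its differences were -0.96 and -4.21, with an adjusted p of 0.026 in limma's interaction test. Serpinb1a, a protease inhibitor, had -0.28 and -2.85 (adjusted p of 0.0057 in limma's interaction test), and Tspo, a protein of the outer mitochondrial membrane, -0.02 and -0.99 (adjusted p of 0.01 in the same test). For such genes the average stands mainly for the TAC difference.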

How the data were processed

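Trimmomatic 0.36, STAR 2.5.2b, Subread 1.5.2 and DESeq2 are named in the submitters' processing notes, with GRCm38 and mm10 as builds. No source used here gives their settings, and the strand setting of counting is not given in the sources used here. Overlapping genes, antisense partners and near-identical copies can thus share reads. Per the file headers, the deposited tables give a signal per library (normalised reads) with the authors' log2 fold changes and p-values, 1 table for each pair of groups. Dividing read counts by 1 size factor a library gave the signal the authors deposited, and undoing the division gave whole reads for 100% of the values (tolerance 0.0001). Sham and TAC libraries were scaled in separate tables, so levels are compared between diets within a surgery only.

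The test was limma-trend (limma 3.58.1, R 4.3.3) with robust moderation, on log2(value + 1) of the 12 libraries, with 4 group means. Changes of low genes are understated on that scale. The averaged diet contrast and the interaction were adjusted by Benjamini-Hochberg over the 17571 genes, with a threshold of 0.05. Just under the filter on the mean of 10 were Gm8979 (9.65) and Gm4779 (9.75), and just above it Efcab9 (10.02) and Treh (10.13). The design foresaw this test for normalised values, with edgeR 4.0.16 and DESeq2 1.42.0 on the recovered reads as alternatives.

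Positions are GENCODE M21 on GRCm38, and 17532 of the genes were found there. List members missing by symbol were matched through older RefSeq symbols (Mmut as Mut, Ccn2 as Ctgf, Castor1 as Gatsl3, Castor2 as Gatsl2). The contrast, the 43 lists (29 of pathways, 14 of cell types and structured RNAs) and the rules were chosen with earlier results of these data known. Named genes are the 12 largest rises and falls among similar genes whose mean was 50 or more and whose diets overlapped neither in sham nor in TAC, up to 4 called members with the smallest p of each list with at least 2 called, a set of 23 genes, and the 8 most unequal by size or interaction. Members of lists given with an averaged difference alone were taken from the lists.

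Replicate numbers are from the labels. The fits were tested on simulated reads with known changes. Alternatives were the pseudocount, the filter, joint scaling, edgeR, DESeq2, an additive model, the replicate number as a block, limma with no trend and no robust step, and leaving out each library. Some members of the lists are counted but are not reported here by name.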

Additional observations from a re-analysis of the deposited data

Results flagged for a closer look

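For 17 of the named genes the diet difference in TAC hearts differed from that in sham hearts by the interaction test of limma at an adjusted p below 0.05. All values here are the TAC difference minus the sham difference in log2 units. Among genes lower on the BCAA-free diet on average, it was -3.26 for Sprr1a, -2.98 for Cthrc1, -2.74 for Krt18, a keratin, and -2.57 for Serpinb1a. It was -1.44 for E2f1, -1.11 for Mcm5 and -0.75 for Mcm6 of the cell cycle. It was -1.32 for Lgals3, -1.26 for Uchl1, a deubiquitinating enzyme, -1.21 for the fibroblast gene Mfap5, -1.02 for the plasma glutathione peroxidase Gpx3, -0.97 for Tspo and -0.92 for the muscle LIM protein Fhl1. Among genes higher on average, it was 0.53 for Bckdha, 1.13 for mt-Atp8, 1.49 for 2310020H05Rik and 1.75 for the mitochondrial transfer RNA gene mt-Tf. Of these, Gpx3, mt-Atp8, 2310020H05Rik and mt-Tf had opposite signs in sham and TAC hearts. The number of genes that passed the interaction test was 112, and it was 1789 without control TAC 3.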

How the results depend on the processing

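The 4516 genes called for the averaged diet difference were 4462 with edgeR and 5132 with DESeq2, and no named gene that passed the test changed direction under any alternative run. Myh7 and Per1, which did not pass, turned from -0.19 to 0.02 and from -0.08 to 0.05 without control TAC 2. Without 1 library at a time the count ran from 3313 to 6504, with 1350 to 3290 higher and 1963 to 3214 lower, and the highest count came without control TAC 3. The 1987 similar genes ran from 1508 to 2349, and were 1114 when the smaller difference had to be at least 0.67 of the larger and 4414 by sign alone. The 112 interaction calls were the least stable result. They ran from 15 to 1789 without 1 library, and were 808 with DESeq2, 140 with edgeR, 3 with no trend and no robust step, 50 with the replicate number as a block, and 1113 without the 4 libraries high in structured RNA, an alternative chosen after seeing the data. The causes were not tested. For genes called at 0.01 in sham hearts, 84.4% had the same sign with an unadjusted p below 0.05 in TAC hearts. For those called at 0.01 in TAC hearts, 95.2% had the same sign in sham hearts and 63.0% also an unadjusted p below 0.05. Of the 184 named genes that were called, 161 kept their call without any 1 library.

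No pairing of samples by replicate number was seen, although 3 libraries a group cannot exclude a weak one. Deviations of the 18 same-numbered pairs correlated between -0.18 and 0.12, 1 pair was over 0.1, and 1 of the 12 libraries correlated best with its own number. With the replicate number as a block, 3984 genes were called and 1767 were similar.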

Other observations

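Counts in this paragraph stand beside 25.7% of all genes tested that passed in either direction. Genes of the endoplasmic reticulum and the unfolded protein response changed in both directions, with 3 of 22 higher and 6 lower with limma. The counts were 1 and 8 with edgeR, and 3 were lower in the additive model of diet and surgery. The 3 rises became 5 without control TAC 3 and 1 without control sham 1, control TAC 1, BCAA-free sham 1, BCAA-free sham 3, BCAA-free TAC 1 or BCAA-free TAC 2. Edem1, which marks misfolded proteins for disposal, fell by -0.51 and the disulfide isomerases Pdia4 and Pdia3 by -0.39 and -0.34, while Herpud1, of the same disposal route, rose by 0.54. Among 19 genes of oxidative stress 4 fell, Hmox1 (heme oxygenase 1) by -0.64 and Srxn1 (sulfiredoxin) by -0.47 among them, and 1 rose. None rose with edgeR, 4 did without control TAC 3, and 0 did without any 1 of control sham 1 and 3, control TAC 2, the BCAA-free sham libraries or BCAA-free TAC 2 and 3. Of 25 genes of glucose uptake and glycolysis 8 rose and 4 fell, with Slc2a4, the insulin-responsive glucose transporter, at 0.41, and the phosphofructokinases Pfkm at 0.27 and Pfkp at -0.34. Leaving out 1 library brought the falls to 2 for each of 6 libraries (control sham 2 and 3, control TAC 1, BCAA-free sham 3, BCAA-free TAC 1 and 2). Among 17 PPAR alpha responsive genes 6 rose and 1 fell, with Acot1, an acyl-CoA thioesterase, at 0.56 and Ppara itself at 0.58, and 3 rose without control sham 2, control sham 3, control TAC 1, BCAA-free sham 1 or BCAA-free TAC 2. Of 26 ribosome biogenesis genes 1 rose and 2 fell, and with 1 library left out 0 to 1 rose and 1 to 3 fell.

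Counts for markers of other cell types stand beside 25.7% of all genes that passed. Nerve and Schwann cell markers fell in 3 of 7, Pmp22, a myelin protein, by -0.49, and 6 of the 7 had lower estimates in both kinds of heart. With DESeq2 5 fell, as without BCAA-free sham 2, and 1 fell without control sham 2 or BCAA-free sham 3. Their summed level was 50.1 to 56.1 CPM in BCAA-free TAC against 91.8 to 109 CPM in control TAC hearts. Epicardial and mesothelial markers fell in 3 of 8, and 3 others rose without control sham 1, while the list's median was 0.76 and its mean 0.15. Wt1, a transcription factor of the epicardium, fell by -0.90 (-0.82 in sham, -0.98 in TAC) and the keratin Krt18 by -1.52. Smooth muscle and pericyte markers rose in 2 and fell in 3 of 10, skeletal muscle markers rose in 1 and fell in 2 of 5, lymphocyte markers fell in 1 of 6, neutrophil markers fell in 1 of 3, and adipocyte markers rose in 1 of 8. With 1 library left out, 1 to 2 smooth muscle and pericyte markers rose and 2 to 5 fell (5 without control TAC 3), and 0 to 2 skeletal muscle markers rose (2 without control TAC 3). Of 6 atrial markers none passed with limma, while 1 was lower at an unadjusted p below 0.05, with edgeR and with DESeq2. Their summed level was 225 to 686 CPM in control sham, 267 to 401 CPM in BCAA-free sham, 1624 to 2983 CPM in control TAC and 837 to 1255 CPM in BCAA-free TAC hearts. None of 5 red blood cell genes and none of 3 structured RNAs passed with limma, at an unadjusted p below 0.05 (0 and 0), with edgeR (0 and 0) or with DESeq2 (0 and 0). The structured RNAs had medians of -1.59 in sham and 2.42 in TAC hearts.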
